A study of Mus musculus with 12 samples.

Results

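A set of 10 imprinted genes tied to growth was followed through chondrocytes that had been given a SIRT5 plasmid: H19, Igf2, Dlk1, Meg3, Peg3, Mest, Plagl1, Cdkn1c, Gnas and Grb10. They were picked by symbol from the 57010 gene IDs of the count tables, each through its Ensembl ID. They were chosen because H19 was far lower in both plasmid groups than in control, so the difference of H19 from control is described here without a test. Every other gene was asked whether it followed. RNA came from primary mouse chondrocytes, all labelled wild type in genotype. There were 3 groups of 4 libraries: control, cells given a plasmid labelled WT (SIRT5_WT below) and cells given a plasmid labelled SIRT5F101L mutant (SIRT5_F101L below). The WT plasmid is read here as wild-type SIRT5, a mitochondrial lysine deacylase. What the control cells were given, the strain and age of the animals, and whether libraries came from separate cultures are not given in the labels, so p-values measure only the spread between these libraries.

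An imprinted gene is transcribed mainly from the chromosome of one parent, because DNA methylation laid down in the egg or the sperm marks a control region shared by a cluster of neighbours. Many paternally expressed genes (Igf2, Dlk1, Mest, Peg3, Plagl1) are linked to fetal growth, and several maternally expressed ones (H19, Cdkn1c, Grb10) restrain it. A group of them is abundant in fetal and young growing tissue and declines as growth slows after birth. In growth plate cartilage, IGF signalling drives chondrocyte proliferation and enlargement, and Cdkn1c accompanies cell cycle exit.

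Library totals ran from 15095357 to 24242139 counts, and 18692 to 19809 IDs had at least 1 count. The mouse Sirt5 gene was close to the detection limit, with 1 to 19 counts in a library. It showed no detectable rise with either plasmid (log2 fold change -0.86, SE 0.49, edgeR adjusted p 0.143 for SIRT5_WT, and 0.03, SE 0.45, adjusted p 0.954 for SIRT5_F101L). The counts therefore give no check of the plasmid labels. SIRT5_F101L replicate 1 stood apart: its counts differed from the rest of its group by 8.20 to 8.92 times sampling noise (median chi-square over genes), against 3.05 to 3.62 among the other 3 libraries of that group. It was closer to SIRT5_WT replicates 2, 3 and 4 (2.61 to 3.98). Of the SIRT5_WT libraries, replicate 1 lay farthest from it (6.27), and that library was about as far from its own group (3.63 to 5.80) as from the other 3 SIRT5_F101L libraries (4.01 to 4.76). Values between the plasmids are therefore given without each of these libraries for the genes that differ most, and counts against control without SIRT5_F101L replicate 1 where they change. Chondrocyte markers were present in every library, but their summed level was 8106 to 10130 CPM (counts scaled to library size, with TMM) in control, 2255 to 2405 in SIRT5_WT and 1794 to 2014 in SIRT5_F101L, and 9 of 11 were called lower in each plasmid group, where 28.1% and 30.7% of all genes tested were. Hapln1 was called higher in both (0.25 and 0.18) and Acan in SIRT5_WT (0.47); with a correction for transcript length 1 marker was higher in SIRT5_WT and 0 in SIRT5_F101L. Fibroblast markers went from 30310 to 36200 CPM in control to 9920 to 11280 and 9568 to 10930, with 7 of 8 called lower in each and the other, Pdgfra, called higher (0.39 and 0.62). Macrophage markers went from 161 to 194 CPM to 87.3 to 98.5 and 85.3 to 111, with 7 and 6 of 7 tested called lower and Itgam listed at 0. Skeletal muscle markers summed to 7.59 to 9.06 CPM in control and to 2.44 to 4.74 and 2.04 to 3.85 with plasmid, and Myog, Ckm, Pax7 and Tnnc2 never exceeded 3 counts. The summed osteoblast markers were 1849 to 2023 CPM in control and 13240 to 16500 and 14410 to 16770 with plasmid. Nearly all of that sum was Spp1, while Ibsp, which passed the expression filter through the control libraries alone, and Sp7 fell. Endothelial markers stayed at 3.17 to 4.82 CPM in all libraries with none called, and adipocyte markers were at 23.8 to 38.1 CPM with 1 tested marker, Fabp4, called higher in both; in SIRT5_F101L (0.31) that call was lost without replicate 1 (0.19) and with a correction for transcript length (0.23). These lists move with the groups that are compared here, and their part in the results was not tested. In bulk RNA, fewer cells of a type and less RNA per cell cannot be told apart.

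The 10 genes lie in 8 imprinted clusters on 6 chromosomes (GENCODE M21 on GRCm38; the submitters' notes name GRCm39, so positions are for orientation only). H19 (ENSMUSG00000000031, chr7:142575529-142578143, minus strand) and Igf2 (ENSMUSG00000048583, chr7:142650766-142666816, minus strand) share one, with Cdkn1c (ENSMUSG00000037664, chr7:143458339-143461050, minus strand) in the neighbouring Kcnq1 cluster. Dlk1 (ENSMUSG00000040856, chr12:109452823-109463336) and Meg3 (ENSMUSG00000021268, chr12:109541001-109571726) lie on the plus strand of the Dlk1-Meg3 cluster. Peg3 (ENSMUSG00000002265) is at chr7:6703892-6730431 on the minus strand, Mest (ENSMUSG00000051855) at chr6:30723547-30748465 on the plus strand and Plagl1 (ENSMUSG00000019817) at chr10:13060504-13131694 on the plus strand. Gnas (ENSMUSG00000027523) is at chr2:174284320-174346744 on the plus strand and Grb10 (ENSMUSG00000020176) at chr11:11930508-12038683 on the minus strand. Some exon sequence is shared with other annotated genes, where reads cannot be assigned with certainty: 64.55% of Igf2, 30.65% of Cdkn1c (with Gm44732), 23.12% of Mest (with Copg2 on the opposite strand) and 21.96% of Gnas (with Gm20721 and Nespas). The share was 9.15% in H19, 8.29% in Meg3 and 0.49% in Plagl1, and 0 in Dlk1, Peg3 and Grb10.

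Both H19 and Mest also carry a microRNA, and these mature sequences (RefSeq, GRCm38.p6) are shown because the host transcripts had the largest differences from control. Capitals mark the seed, bases 2 to 8 from the 5′ end. The miR-675 hairpin lies within exon sequence of H19 and gives both arms (chr7:142577112-142577133 and chr7:142577078-142577099, minus strand). The miR-335 arms lie inside Mest but outside its annotated exons (chr6:30741314-30741336 and chr6:30741354-30741375, plus strand).
mmu-miR-675-5p: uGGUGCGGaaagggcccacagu
mmu-miR-675-3p: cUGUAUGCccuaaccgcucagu
mmu-miR-335-5p: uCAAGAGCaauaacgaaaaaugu
mmu-miR-335-3p: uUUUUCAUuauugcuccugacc
The 4 arms have 4 different seeds. Mir675 and Mir335 were listed at 0 counts in all 12 libraries, and poly(A) libraries do not measure mature microRNAs, so only the host transcripts were read.

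Imprinted control regions are recognised by the zinc finger protein ZFP57 through the methylated hexamer TGCCGC. RefSeq promoter windows (GRCm38.p6, the 250 bases before a start) matched 8 of the 10 genes, in 18 windows. H19 and Cdkn1c had no entry. The hexamer, on either strand (TGCCGC or GCGGCA), was present in windows of 3 of the 8 genes, Mest, Meg3 and Plagl1 (4 windows, of which the 2 of Mest are the same stretch shifted by 3 bases), and in 8.68% of 32851 windows of the same length in the table. The windows with a match are shown, with the hexamer in capitals. The windows of Igf2, Dlk1, Peg3, Gnas and Grb10 held no match. The windows were taken by gene start and not as control regions, and a part of the hexamer in the changes was not tested. The windows are from chr6:30737800-30738049, chr12:109540746-109540995 and chr10:13090582-13090831, all on the plus strand.
Mest: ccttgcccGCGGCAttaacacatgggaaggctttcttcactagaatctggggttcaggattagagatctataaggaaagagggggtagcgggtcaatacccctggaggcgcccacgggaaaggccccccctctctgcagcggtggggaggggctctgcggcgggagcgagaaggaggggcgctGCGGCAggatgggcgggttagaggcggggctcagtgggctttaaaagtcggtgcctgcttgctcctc
Meg3: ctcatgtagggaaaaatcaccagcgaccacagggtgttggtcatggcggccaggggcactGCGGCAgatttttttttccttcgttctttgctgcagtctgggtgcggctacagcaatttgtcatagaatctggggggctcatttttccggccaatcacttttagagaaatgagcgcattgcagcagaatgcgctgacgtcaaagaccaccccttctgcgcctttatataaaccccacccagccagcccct
Plagl1: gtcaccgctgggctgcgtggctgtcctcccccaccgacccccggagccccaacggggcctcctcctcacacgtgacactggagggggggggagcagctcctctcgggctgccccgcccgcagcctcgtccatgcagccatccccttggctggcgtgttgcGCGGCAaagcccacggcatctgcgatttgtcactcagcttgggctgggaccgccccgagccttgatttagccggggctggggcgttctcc
These windows hold 14 CpG in Mest, 10 in Meg3 and 19 in Plagl1, against a median of 6 over all windows. The hexamer itself contains a CpG, so windows picked for it are favoured in that count. Among the 18 windows, those without a match held from 0 CpG (the other Meg3 window) to 40 (Grb10). DNA methylation was not measured, and a letter match is a description of the sequence.

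The levels of the 10 genes in control spanned a wide range when compared per length (mean CPM per kb of the longest transcript ± SD, n = 4). H19 was the most abundant, at 320.5 ± 13.2, followed by Mest at 173.7 ± 10.8, Grb10 at 118.3 ± 1.57, Meg3 at 61.9 ± 12.6 and Plagl1 at 35.1 ± 3.68. Gnas stood at 12.5 ± 0.535, Peg3 at 9.54 ± 0.499, Cdkn1c at 3.93 ± 0.506 and Dlk1 at 1.23 ± 0.138. Each step in that order was larger than the SDs of both neighbours together. With plasmid the order changed: Grb10 led at 60.0 ± 2.60 in SIRT5_WT and 65.0 ± 4.67 in SIRT5_F101L, and H19, at 34.7 ± 1.94 and 27.3 ± 2.58, came down to the range of Meg3 (27.9 ± 2.49 and 25.8 ± 2.11) and Plagl1 (27.3 ± 2.61 and 28.1 ± 5.78). In SIRT5_F101L these 3 were within their SDs of each other. Mest dropped from the second place to 5.59 ± 0.336 and 4.40 ± 0.518 CPM per kb, under Peg3 and Gnas.

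All 9 genes with counts passed the expression filter, and each would have passed it on either side, control or plasmid, alone. H19 aside, 8 of 8 were called lower in SIRT5_WT than in control (edgeR, adjusted p under 0.05), where 28.1% of all 14253 genes tested were called lower. The groups did not overlap for 8 of 8, against 26.5% of all genes. In SIRT5_F101L 8 of 8 were again called lower, against 30.7% of all genes, and 7 of 8 did not overlap, against 25.7%. The change was at least 2-fold for 3 of them in SIRT5_WT (Mest, Cdkn1c and Meg3; 7.56% of all genes) and for 5 in SIRT5_F101L (the same 3 with Gnas and Dlk1; 7.67%). Their median log2 fold change was -0.90 and -1.13, beside -0.01 and -0.02 over all genes. Both comparisons use the same 4 control libraries. Without SIRT5_F101L replicate 1 the count was 8 of 8 in both.

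**Figure D1:**
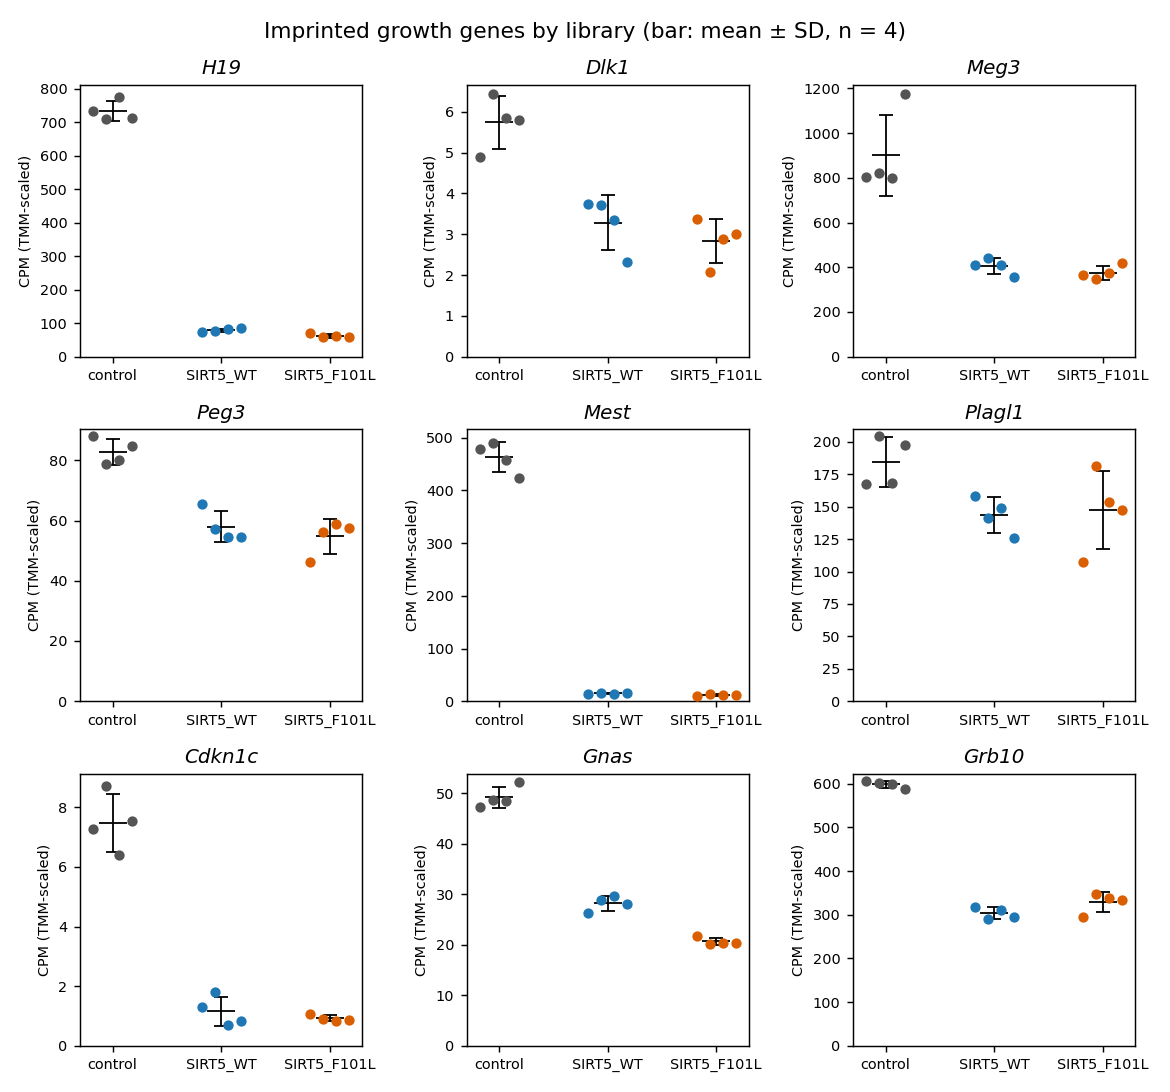
Level of each gene in each library (CPM, TMM-scaled, linear axes from 0), with the 4 libraries of a group as points and the mean ± SD as a bar. Control points lie above every plasmid point for each gene shown except Plagl1, where SIRT5_F101L replicate 2 (181 CPM) lies among the controls.

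Among the non-coding RNAs, H19, a maternally expressed transcript that is spliced and polyadenylated like an mRNA, had 734, 709, 775 and 713 CPM in the control libraries. It had 74.3, 77.4, 81.4 and 84.4 CPM in SIRT5_WT and 71.1, 59.5, 61.0 and 58.0 CPM in SIRT5_F101L. The lowest control was thus far above the highest plasmid library, and the plasmid groups lay close together. The means were 732.8 ± 30.2, 79.3 ± 4.44 and 62.4 ± 5.90 CPM (SD, n = 4). On the log2 scale SIRT5_WT differed from control by -3.21 (SE 0.07) and SIRT5_F101L by -3.55 (SE 0.07). These are 9.24 and 11.7 times lower, at place 95 and 72 from the bottom of 14253 genes.

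Meg3, the maternally expressed non-coding RNA of the Dlk1-Meg3 cluster, had 805, 823, 801 and 1174 CPM in control, 411, 443, 412 and 356 in SIRT5_WT and 364, 347, 374 and 418 in SIRT5_F101L. Control replicate 4 was high on its own, and all controls were above all plasmid libraries. Meg3 fell by 1.15 (SE 0.10, edgeR adjusted p 9.98e-09) on the log2 scale in SIRT5_WT and by 1.26 (SE 0.10, edgeR adjusted p 2.46e-09) in SIRT5_F101L. Without control replicate 4 the changes were -0.999 and -1.11.

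Of the ligands, Igf2, the fetal growth factor that shares enhancers with H19, was listed at 0 counts in all 12 libraries. That 0 cannot be read as a level: all 2414 IDs on the X chromosome and all 1547 on the Y chromosome were at 0 as well. In the annotation used here 64.55% of the exon sequence of Igf2 (62.83% on the same strand) and 80.53% of its coding sequence is shared with other genes. These are chiefly Gm49394 on the same strand, which was also at 0. Of autosomal protein-coding genes with at least 95% of their exon sequence shared on the same strand, 84 of 171 (49.1%) were at 0 in every library, against 2994 of 14410 (20.8%) with no shared sequence; Igf2 shares less than that first class does. Genes that every cell uses were also at 0, among them Rps10 and Rpl35 (exon overlap 28.73% and 66.16%) and Rpl35a and Eif2s2, with no overlap. Whether Igf2 followed H19 was therefore not measured.

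Dlk1, a membrane protein related to Notch ligands and expressed from the paternal chromosome, was the faintest of the genes per length in control, with 84 to 127 counts in control and 32 to 76 with plasmid. It had 4.88, 6.44, 5.86 and 5.79 CPM in control, 3.75, 3.72, 3.35 and 2.32 in SIRT5_WT and 3.37, 2.08, 2.89 and 3.004 in SIRT5_F101L. The groups did not overlap with control. Dlk1 fell by 0.81 (SE 0.18, edgeR adjusted p 0.000851) in SIRT5_WT and by 1.01 (SE 0.19, edgeR adjusted p 9.53e-05) in SIRT5_F101L on the log2 scale.

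Meg3 and Dlk1 come from opposite parental chromosomes of one cluster, so their ratio within a library was compared directly. The log2 ratio of Meg3 to Dlk1 was 7.27 ± 0.299 in control, 6.96 ± 0.206 in SIRT5_WT and 7.05 ± 0.255 in SIRT5_F101L (SD, n = 4), and the 3 groups overlapped. The difference from control was -0.32 in SIRT5_WT (exact 2-sided permutation p 0.143, 0.429 adjusted over 3 comparisons) and -0.22 in SIRT5_F101L (exact p 0.429, adjusted 0.6). Between the plasmid groups it was 0.10 (exact p 0.6, adjusted 0.6). Without control replicate 4, which was high for Meg3, the differences from control were -0.19 and -0.09, and without SIRT5_F101L replicate 1 the second was -0.12. The smallest p that 70 arrangements allow is 0.0286. No change in the balance of the pair was detectable at the depth of Dlk1.

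Mest, a paternally expressed enzyme-like protein of the endoplasmic reticulum, changed more than any other of the genes. It had 479, 490, 458 and 425 CPM in control, 14.2, 14.7, 14.6 and 16.2 in SIRT5_WT and 10.6, 13.7, 11.6 and 11.1 in SIRT5_F101L. Every plasmid library was at a small fraction of every control, with little spread inside a group. The fall was 31.0-fold in SIRT5_WT (log2 fold change -4.96, SE 0.08, edgeR adjusted p 4.89e-20) and 39.6-fold in SIRT5_F101L (-5.31, SE 0.08, edgeR adjusted p 2.80e-20), at place 27 and 24 from the bottom of all genes tested.

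Cdkn1c encodes p57, an inhibitor of cyclin-dependent kinases expressed from the maternal chromosome. It had 7.26, 8.72, 6.39 and 7.54 CPM in control (120 to 172 counts), 1.28, 1.80, 0.693 and 0.823 in SIRT5_WT and 1.07, 0.910, 0.842 and 0.850 in SIRT5_F101L. All controls were above all plasmid libraries, which held 12 to 28 counts each. Cdkn1c fell by 2.71 (SE 0.23, edgeR adjusted p 3.87e-09) in SIRT5_WT and by 3.02 (SE 0.24, edgeR adjusted p 1.01e-09) in SIRT5_F101L on the log2 scale. Of its coding sequence 57.87% is shared with Gm44732, which was at 0 in all libraries.

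The signalling members were lower to a smaller extent. Grb10, an adaptor that binds the insulin and IGF1 receptors and dampens their signal, had 606, 602, 600.2 and 588 CPM in control, 318, 290.0, 311 and 296 in SIRT5_WT and 295, 349, 339 and 334 in SIRT5_F101L. The controls were tightly grouped and well above both plasmid groups. Grb10 fell by 0.98 in SIRT5_WT (SE 0.06, edgeR adjusted p 1.98e-11) and by 0.86 in SIRT5_F101L (SE 0.06, edgeR adjusted p 1.33e-10) on the log2 scale.

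Gnas encodes the stimulatory G protein alpha subunit that links receptors such as the PTH receptor to cyclic AMP. It had 47.2, 48.7, 48.5 and 52.2 CPM in control, 26.3, 28.8, 29.7 and 28.1 in SIRT5_WT and 21.7, 20.2, 20.3 and 20.4 in SIRT5_F101L. The 3 groups formed 3 separate steps. Gnas fell by 0.80 (SE 0.07, edgeR adjusted p 4.61e-09) in SIRT5_WT and by 1.25 (SE 0.07, edgeR adjusted p 5.40e-12) in SIRT5_F101L. Of its coding sequence 41.43% overlaps Gm20721 and Nespas on the opposite strand, and the counts do not separate the several Gnas transcripts.

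The zinc finger genes moved least. Peg3, a large paternally expressed zinc finger protein, had 88.2, 78.7, 80.1 and 84.6 CPM in control, 65.4, 57.2, 54.5 and 54.6 in SIRT5_WT and 46.1, 56.1, 59.0 and 57.7 in SIRT5_F101L. All controls were above all plasmid libraries, and Peg3 fell by 0.52 in SIRT5_WT (SE 0.08, edgeR adjusted p 1.56e-05) and by 0.60 in SIRT5_F101L (SE 0.08, edgeR adjusted p 2.29e-06) on the log2 scale.

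Plagl1, a transcription factor known to regulate other imprinted genes, had 168, 205, 169 and 198 CPM in control, 158, 141, 149 and 126 in SIRT5_WT and 108, 181, 154 and 148 in SIRT5_F101L. The control and SIRT5_WT libraries did not overlap, whereas 1 SIRT5_F101L library lay within the control range and replicate 1 lay far under it. Plagl1 fell by 0.36 (SE 0.11, edgeR adjusted p 0.0105) in SIRT5_WT and by 0.32 (SE 0.11, edgeR adjusted p 0.0186) in SIRT5_F101L. The second call was the least secure of all: without SIRT5_F101L replicate 1 the change was -0.20 (edgeR adjusted p 0.0264), and without control replicate 2 or 4 the call was lost (-0.27 and -0.29, edgeR adjusted p 0.0672 and 0.0543). With a correction for transcript length it was -0.50 (edgeR adjusted p 5.63e-05).

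**Figure D2:**
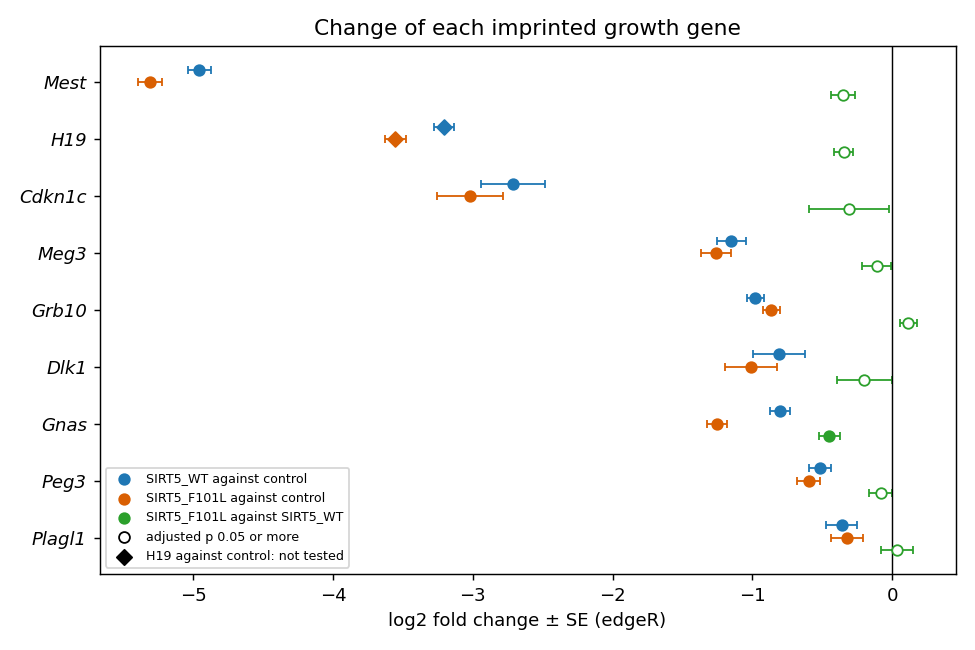
Log2 fold change ± SE (edgeR) of the 9 genes with counts in the 3 comparisons, ordered by the change in SIRT5_WT; filled circles were called at an adjusted p under 0.05, open circles were not, and diamonds mark H19 against control, which was not tested. Mest (-4.96 and -5.31) lies farthest left and Plagl1 (-0.36 and -0.32) nearest to 0, while the comparison between plasmids stays between -0.45 and 0.12.

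The comparison of SIRT5_F101L with SIRT5_WT asks whether the mutant differs from the wild-type protein. The rule for the genes names the difference from control, but they were proposed with results of this comparison known as well. By edgeR, 1 of the 9 genes, Gnas, was called lower, where 0.014% of all genes were called lower (2 of 14253) and 0.0421% in either direction (6 genes); at an unadjusted p under 0.05 there were 1701 genes (11.9%). Gnas was 1.37-fold lower in SIRT5_F101L (log2 fold change -0.45, SE 0.07, edgeR adjusted p 0.0339), with all 4 SIRT5_F101L libraries below all 4 SIRT5_WT libraries. An earlier analysis of these data had already shown Gnas, so the call is no independent support. It was kept without SIRT5_F101L replicate 1 (-0.47, edgeR adjusted p 0.000135) and lost in 11 of 19 alternatives, without any 1 of the other SIRT5_F101L libraries, any 1 SIRT5_WT library or control replicate 1, 3 or 4, and in the fit of the 8 plasmid libraries alone, at sizes of -0.42 to -0.48 and edgeR adjusted p-values up to 0.242. Without SIRT5_WT replicate 1 it was -0.48 (edgeR adjusted p 0.0711). The other gene called lower was the chondrocyte marker Col11a2 (-0.63, SE 0.10, edgeR adjusted p 0.0339), and 8 of 11 chondrocyte markers had an unadjusted p under 0.05 in this comparison (4 were called by DESeq2). The part of these markers in the difference of Gnas was not tested.

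H19 was 1.27-fold lower in SIRT5_F101L than in SIRT5_WT (log2 fold change -0.35, SE 0.07, edgeR adjusted p 0.0942), and Mest 1.28-fold lower (-0.35, SE 0.09, edgeR adjusted p 0.199). Neither passed the threshold in the fit of all libraries, although the groups did not overlap for either of them, as for 2.03% of all genes in this direction. Without SIRT5_F101L replicate 1, whose H19 level of 71.1 CPM was the highest of its group, H19 was called (-0.41, edgeR adjusted p 3.56e-05), as was Mest (-0.31, edgeR adjusted p 0.0178). H19 was also called by DESeq2 (adjusted p 0.00256), with no filter (edgeR adjusted p 0.000369) and with the correction for transcript length (edgeR adjusted p 0.0296), and Mest with no filter (edgeR adjusted p 0.00945). Without SIRT5_WT replicate 1 neither was (both -0.38, edgeR adjusted p 0.106 and 0.19). Without SIRT5_F101L replicate 1, Grb10 was called higher (0.17, edgeR adjusted p 0.0355, against 0.12, SE 0.06, adjusted p 0.442 with all libraries). In that fit 3 of the 9 were thus lower and 1 higher, where 8.58% of all genes were called lower and 6.66% higher (2213 genes); with all libraries 0.0281% were higher. The remaining genes overlapped between the plasmid groups, at -0.31 (SE 0.29) for Cdkn1c, -0.20 (SE 0.19) for Dlk1, -0.11 (SE 0.10) for Meg3, -0.08 (SE 0.08) for Peg3 and 0.04 (SE 0.11) for Plagl1, with edgeR adjusted p-values of 0.668 to 0.92. The sign of Plagl1 turned with the library left out.

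The other imprinted genes were then examined by cluster. In the Dlk1-Meg3 cluster 7 of 7 tested genes were called lower in both plasmid groups, where 28.1% and 30.7% of all genes were. These 7 include Dlk1 and Meg3, already counted above. Dio3, the enzyme that inactivates thyroid hormone, fell by 3.12 (SE 0.31, edgeR adjusted p 4.25e-08) in SIRT5_WT and by 2.89 (SE 0.30, edgeR adjusted p 7.40e-08) in SIRT5_F101L on the log2 scale, from 4.87 ± 1.13 to 0.557 ± 0.106 and 0.638 ± 0.358 CPM (SD, n = 4). Begain changed by -2.04 and -1.71, the retrotransposon-derived Rtl1 by -1.16 and -0.81, and the non-coding RNAs Rian and Mirg by -0.70 and -0.72 and by -0.95 and -1.03. The non-coding RNAs Meg3, Rian and Mirg lie in tandem on one strand of that cluster, and Dlk1, Rtl1 and Dio3 are expressed from the other parental chromosome, so genes of both known parental origins were lower. The counts do not separate the parental alleles, and imprinting itself was not measured.

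In the Mest cluster Copg2, whose exons overlap those of Mest on the opposite strand, fell by 1.26 and 1.15 on the log2 scale. The carboxypeptidase Cpa4 was at 1.16 ± 0.313 CPM in control and at 0.249 ± 0.148 and 0.249 ± 0.0295 with plasmid (SD, n = 4); it passed the filter through the control libraries alone, so it had to differ (-2.19 in both), and nothing is read from its call. Phactr2, beside Plagl1, fell by 0.64 and 0.53, and Cobl, beside Grb10, by 0.72 and 0.77 on the log2 scale. In the Peg3 cluster Zim1 fell by 1.05 and 1.06, and Usp29, with 2 to 26 counts, was not called (-0.13, SE 0.52, and 0.20, SE 0.51). The Kcnq1 cluster around Cdkn1c was mixed: the transporter gene Slc22a18 fell by 1.57 and 1.66 and Osbpl5 by 0.26 and 0.35, whereas Nap1l4 rose by 0.29 and 0.24, and Ascl2, a transcription factor of the placenta and T helper cells, rose by 3.03 (SE 0.42) and 3.15 (SE 0.41) from 0.179 ± 0.123 to 1.47 ± 0.439 and 1.62 ± 0.217 CPM. Ascl2 passed the filter through the plasmid libraries alone, so nothing is read from its call. Cd81 was called lower in SIRT5_F101L (-0.20, edgeR adjusted p 0.025) and not in SIRT5_WT (-0.10, adjusted p 0.255), a difference between the plasmids that was not itself called (adjusted p 0.58). Around Gnas and H19 no other listed imprinted gene passed the expression filter.

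**Figure D3:**
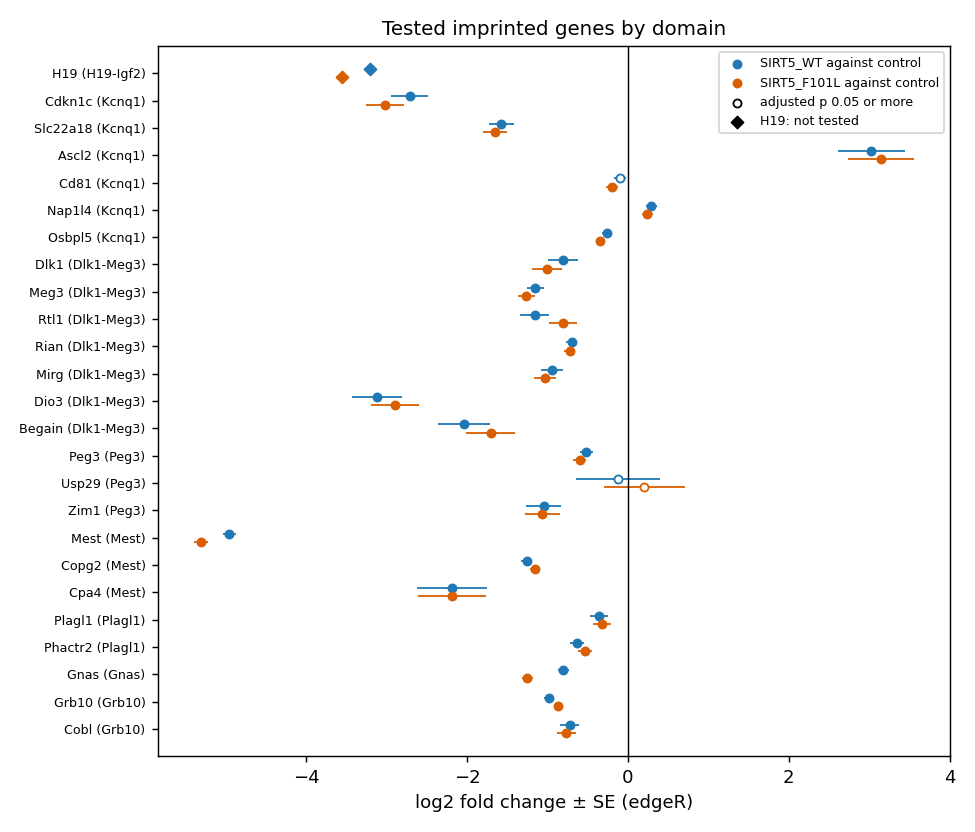
Log2 fold change ± SE (edgeR) against control of every tested imprinted gene in the clusters of the 10 genes, with the cluster in brackets; open circles were not called and diamonds mark H19, which was not tested. The 7 genes of the Dlk1-Meg3 cluster all lie left of 0, and in the Kcnq1 cluster Cdkn1c (-2.71 and -3.02) lies farthest left. Ascl2 and Usp29 passed the expression filter through the plasmid libraries alone and Cpa4 through control alone, so their positions are not read.

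Across the 43 other imprinted genes that passed the filter, of 75 listed, 21 were called lower and 11 higher in SIRT5_WT, and 22 lower and 14 higher in SIRT5_F101L. Of these, 6 would not have passed on control and on plasmid libraries alike (Cpa4 and Slc22a2 through control, Ascl2, Asb4 and Usp29 through plasmid, and Slc38a4 through neither alone). Over the other 37, 18 were lower and 9 higher in SIRT5_WT, and 20 lower and 12 higher in SIRT5_F101L. The shares lower, 48.6% and 54.1%, stand beside 30.1% and 33.1% of the 12542 genes that passed on both sides (28.6% and 29.7% were higher), and the medians of -0.25 and -0.20 beside -0.03 and -0.04. In SIRT5_WT 12 of the 43 were higher without SIRT5_F101L replicate 1. The list includes genes picked for being in the clusters above. Lower calls were no more frequent than higher ones outside the clusters of the 10 genes. In the Peg10-Sgce cluster 3 of 8 were lower and 2 higher in SIRT5_WT, and 3 lower and 3 higher in SIRT5_F101L. In the Igf2r cluster 1 of 3 was lower and 2 higher in both. In the Snrpn cluster 0 of 2 were lower in both, and 1 higher in SIRT5_F101L. Of 14 in other domains 5 were lower and 5 higher in SIRT5_WT, and 5 lower and 6 higher in SIRT5_F101L. Outside the clusters of the 10 genes, and leaving out genes that averaged under 1 CPM, the largest rises were in Htr2a, the serotonin 2A receptor (3.22 and 3.58, both SE 0.10), and Ampd3, an AMP deaminase (1.82 and 2.0004). The largest fall was in Smoc1, a secreted matrix protein that binds calcium (-2.54 and -2.57, both SE 0.06). Imprinting of several listed genes is known only in other tissues. Of the 74 listed genes with an ID, 15 were at 0 in all libraries, among them Ndn, Nnat, Peg13 and Kcnq1ot1. Between the plasmid groups none of the 43 was called by edgeR (4 at an unadjusted p under 0.05, as were 11.9% of all genes, and 1 by DESeq2). Without SIRT5_F101L replicate 1, 5 were called higher and 0 lower, where 6.66% and 8.58% of all genes were.

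Near H19 on chromosome 7 lie genes that are not treated as imprinted, of which 3 of 6 passed the filter. All 3 were called lower in both groups, where 28.1% and 30.7% of all genes were, but Tnnt3 passed the filter through the control libraries alone. Lsp1, a leukocyte actin-binding protein, fell by 1.43 (SE 0.10) and 1.59 (SE 0.10), and the mitochondrial ribosomal protein gene Mrpl23 by 0.38 and 0.58 on the log2 scale. Tnnt3, a skeletal muscle troponin, fell by 2.28 and 2.24 from 2.42 ± 0.496 CPM in control, beside the muscle and macrophage markers given above, whose part in this was not tested. Between the plasmids none of the 3 was called by edgeR (0 at an unadjusted p under 0.05, as were 11.9% of all genes, and 0 by DESeq2). Without SIRT5_F101L replicate 1, 1 was lower, where 8.58% of all genes were.

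Because Igf2 itself could not be read, the rest of the IGF system was described by role. Igf1, the other ligand, fell by 1.22 (SE 0.07, edgeR adjusted p 4.89e-12) in SIRT5_WT and by 0.99 (SE 0.07, edgeR adjusted p 1.16e-10) in SIRT5_F101L on the log2 scale, from 156 ± 5.50 to 67.1 ± 5.50 and 78.8 ± 5.76 CPM (SD, n = 4). Both IGF receptor genes rose: Igf1r, the signalling receptor, by 0.44 and 0.59, and Igf2r, an imprinted receptor that clears IGF2, by 0.46 and 0.47. Airn, the non-coding antisense RNA of the Igf2r cluster, rose with it, by 0.49 and 0.78. The insulin receptor Insr was not called (0.11, SE 0.09, and 0.19, SE 0.09).

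The IGF binding proteins went both ways. Igfbp2 fell, at -1.87 (SE 0.07) and -1.77 (SE 0.07), as did Igfbp6, by 1.05 and 1.21, and the acid labile subunit Igfals by 2.22 and 2.32, though Igfals passed the filter through the control libraries alone. Igfbp3 and Igfbp4 fell by at most 0.27 on the log2 scale, whereas Igfbp5 rose by 0.67 and 0.73 and Igfbp7 by 0.61 and 0.51. Among the proteases that free IGFs from these proteins, Pappa2 fell by 3.10 (SE 0.29) and 2.31 (SE 0.26) and Pappa by 0.68 and 0.45. Their inhibitors rose: Stc1 from 16.9 ± 2.44 to 249 ± 16.3 and 251 ± 25.8 CPM, by 3.88 and 3.89 on the log2 scale (both SE 0.10; adjusted p in edgeR 1.84e-17 and 1.79e-17), and Stc2 by 0.94 and 0.96.

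In total 11 of 28 tested IGF genes were called lower and 9 higher in SIRT5_WT, and 11 lower and 12 higher in SIRT5_F101L; leaving out Igfals, 10 of 27 were lower in both (37.0%), beside 30.1% and 33.1% of the genes that passed on both sides, and 33.3% and 44.4% were higher, beside 28.6% and 29.7%. Without SIRT5_F101L replicate 1 the higher counts were 11 in SIRT5_WT and 15 in SIRT5_F101L, and with the correction for transcript length 7 in each. Calls over all genes, in either direction, moved as well. They were 8747 of 14528 in SIRT5_WT without that library, against 8090 of 14253 with all libraries. With the length correction they were 8304 in SIRT5_WT and 8592 in SIRT5_F101L, against 8090 and 8647. Igf2bp1, Igf2bp2 and Igf2bp3, which bind the Igf2 mRNA, were not called in SIRT5_WT, and of these Igf2bp3 was called higher in SIRT5_F101L (0.29, edgeR adjusted p 0.0476). None of the 28 was called between the plasmids by edgeR (4 at an unadjusted p under 0.05, as were 11.9% of all genes, and 0 by DESeq2). Without SIRT5_F101L replicate 1 there were 8 higher and 2 lower, where 6.66% and 8.58% of all genes were.

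**Figure D4:**
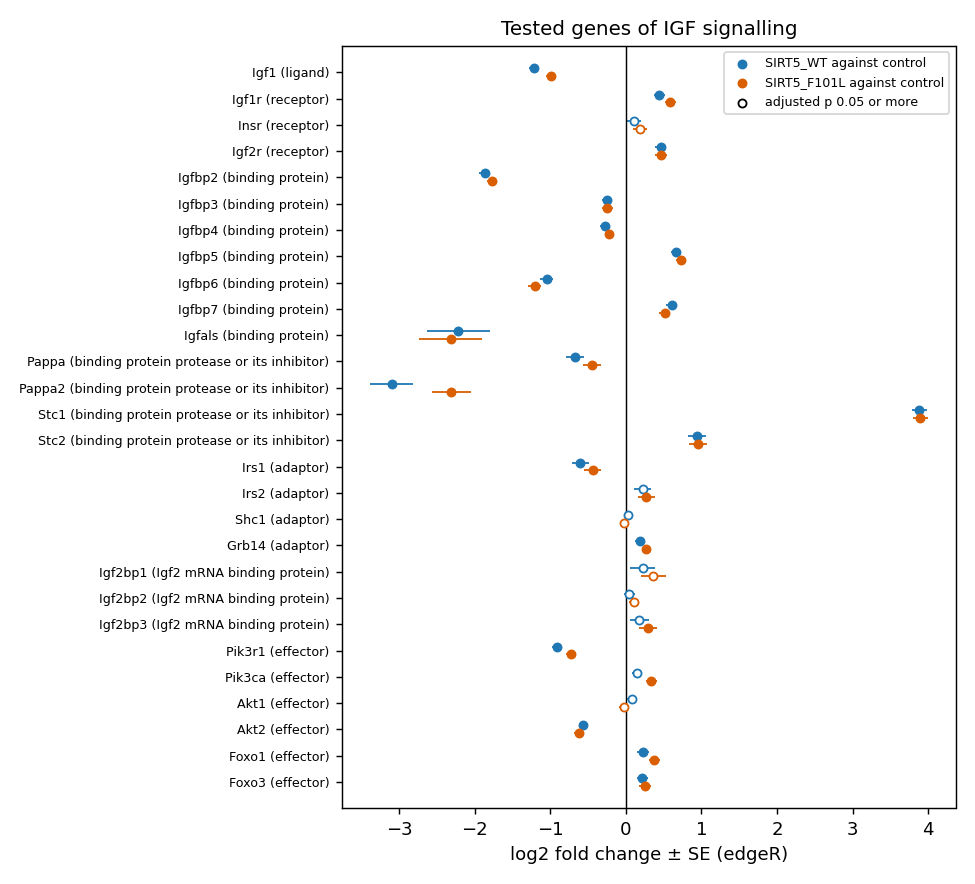
Log2 fold change ± SE (edgeR) against control of the 28 tested genes of IGF signalling, with the role in brackets and open circles for genes that were not called. Igf1 (-1.22 and -0.99) and Pappa2 (-3.10 and -2.31) lie on the left, and the receptors Igf1r and Igf2r and the inhibitor Stc1 (3.88 and 3.89) on the right.

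Of 15 tested genes that maintain imprints, 4 were called higher (26.7%) and 2 lower (13.3%) in each plasmid group, beside 28.7% and 28.1% of all genes in SIRT5_WT and 30.0% and 30.7% in SIRT5_F101L. Without SIRT5_F101L replicate 1 there were 5 higher and 2 lower in SIRT5_WT and 6 higher and 3 lower in SIRT5_F101L. Those higher include the maintenance methyltransferase Dnmt1 (0.53 and 0.53), its partner Uhrf1 (0.80 and 0.71) and the remodeller Hells (0.82 and 1.05). Dnmt3a, a de novo methyltransferase, fell by 0.33 and 0.34, Tet1 fell in SIRT5_WT (-1.59, SE 0.33) and Zfp57 in SIRT5_F101L (-0.60, SE 0.15). Between the plasmids none of the 15 was called by edgeR (1 at an unadjusted p under 0.05, as were 11.9% of all genes, and 0 by DESeq2). Without SIRT5_F101L replicate 1, 1 was higher, where 6.66% of all genes were. With the correction for transcript length 4 were lower and 3 higher in each. Zfp445, which binds imprinted regions alongside Zfp57, and its cofactor Trim28 were not called, at -0.03 and 0.04 and at -0.08 and -0.12. Dnmt1, Uhrf1 and Hells are also known to be more abundant in dividing cells.

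Cdkn1c was set beside the other inhibitors and G1 cyclins, of which 13 were tested: 5 were higher and 5 lower in SIRT5_WT, and 3 higher and 5 lower in SIRT5_F101L. These are 38.5% and 38.5%, and 23.1% and 38.5%, beside 28.7% and 28.1%, and 30.0% and 30.7%, of all genes. The inhibitors Cdkn2a and Cdkn1b fell, by 1.24 and 1.47 and by 0.88 and 0.94, and Cdk4 fell by 0.58 and 0.77. Cyclin D1 (Ccnd1) rose by 0.995 and 1.05, its partner Cdk6 by 0.72 and 0.87, and the inhibitor Cdkn2d by 0.54 and 0.31. The change of Cdkn1c, -2.71 and -3.02, had the largest size of these values. There were 6 higher in SIRT5_WT and 2 in SIRT5_F101L than in control without SIRT5_F101L replicate 1. None of the 13 was called between the plasmids by edgeR (3 at an unadjusted p under 0.05, as were 11.9% of all genes, and 0 by DESeq2). Without that library 1 was higher and 4 lower, where 6.66% and 8.58% of all genes were.

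Gnas was set beside the receptors, cyclases and targets of cyclic AMP signalling, of which 8 of 19 tested were higher (42.1%) and 4 lower (21.1%) in each plasmid group, beside 28.7% and 28.1% of all genes in SIRT5_WT and 30.0% and 30.7% in SIRT5_F101L. In SIRT5_F101L 10 were higher without replicate 1. Pth1r, the PTH receptor of chondrocytes, fell, at -2.12 (SE 0.17) and -1.84 (SE 0.17), and the catalytic kinase subunit Prkaca fell by 0.39 and 0.44 on the log2 scale. The transcription factor Crem rose by 2.34 (SE 0.08) and 2.37 (SE 0.08), and the phosphodiesterases Pde4d and Pde4b by 1.75 and 2.10 and by 1.71 and 1.90. None of the 19 was called between the plasmids by edgeR (2 at an unadjusted p under 0.05, as were 11.9% of all genes, and 0 by DESeq2). Without SIRT5_F101L replicate 1, 3 were higher and 0 lower, where 6.66% and 8.58% of all genes were.

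Last, genes with the pattern most like H19 were listed, as the smallest root mean square difference over the 8 plasmid libraries of log2 CPM relative to each gene's own control mean, among 9706 genes. They were Comp, a cartilage matrix protein (0.13), Mettl7a1 (0.14), Col9a1, a chain of cartilage collagen IX (0.21), the adrenergic receptor Adra1b (0.26) and Islr (0.27). Comp went from 2044 CPM in control to 213 in SIRT5_WT and 189 in SIRT5_F101L, and Col9a1 from 84.4 to 8.90 and 6.04. None of the 5 is an imprinted gene of the lists used here, and 2 of them, Comp and Col9a1, are chondrocyte markers of the list above. Only 8 other members and 43 other imprinted genes were tested, so few of the genes ranked could have been imprinted. Their absence among 5 is not read as a result. The ranking also uses the difference of H19 from control, which chose the genes, so it is a description only.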

How the data were processed

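The authors deposited, for each library, a table without header that gives a raw count for each Ensembl ID. Per the submitters' processing notes, FastQC 0.11.9, HISAT2 2.2.1, HTSeq 2.0.2 and DESeq2 1.38.3 were used with GRCm39; the annotation and the strand setting of the counting are not given in the sources used here. Per the labels' protocols, libraries were poly(A)-selected, made with the NEBNext Ultra kit and read as paired ends.

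Symbols were found for 52029 of 57010 IDs. Counts were scaled by TMM (factors 0.9449 to 1.03), filtered by edgeR's filterByExpr and fitted with edgeR 4.0.16 (R 4.3.3; quasi-likelihood test, 12 libraries, a mean per group, 9 residual degrees of freedom), with Benjamini-Hochberg adjustment over 14253 genes. The code was tested on simulated counts. CPM values are TMM-scaled. Intervals between libraries cover these libraries only, and a low count carries counting error of its own. Replicate numbers follow deposition order.

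The genes and lists were chosen with earlier results of these data known. Besides the 10 genes, the text names the 3 highest and 3 lowest called genes of each list with a mean of at least 1 CPM, tested genes of the same clusters and the 5 genes most like H19, except 1 gene that is not reported here; other list genes named (such as Igf1, the IGF receptors, Igfbp and Igf2bp genes, Airn, Zfp445, Trim28 and markers) were chosen for their role after their values were seen. The alternatives changed the scaling (RLE, upper quartile), the filter (none, or a filter at 1 CPM), the tool (DESeq2 1.42.0), the fit (8 libraries only; a transcript-length trend as offset with loess span 0.5) and the libraries (each left out in turn). The counts of each list without SIRT5_F101L replicate 1 and with the length trend, and those over genes that pass the filter on the control and on the plasmid libraries alone, were added after seeing the data.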

Additional observations from a re-analysis of the deposited data

Results flagged for a closer look

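Meg3 in control replicate 4, at 1174 CPM, lay far above the 3 other controls at 800.7 to 822.9 CPM, a gap of 0.941 of the group's range, past Dixon's 95% critical value for 4 samples. Gnas in SIRT5_F101L replicate 1, at 21.7 CPM, lay above the other 3 libraries of its group at 20.2 to 20.4 CPM, a gap of 0.868 of the range. Chance flags about 1 in 20 groups, or 1.5 of the 30 examined here. The difference of Gnas between SIRT5_F101L and SIRT5_WT (log2 fold change -0.45, edgeR adjusted p 0.0339, lower in 4 of 4 libraries) was tested directly, and an earlier analysis of these data had already shown it.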

How the results depend on the processing

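Against control, 340 of 342 alternatives for the 9 genes kept direction and side of the threshold (H19: direction only); the other 2 concern Plagl1 in SIRT5_F101L, given above. Between the plasmids, 150 of 171 did. The genes called there, 6 with all libraries, were 354 with no filter, 44 by DESeq2, 2 in the fit of 8 libraries, 16 with the length trend and 0 to 2213 leaving out 1 library, the highest without SIRT5_F101L replicate 1. The genes of the 9 called lower, 1 with all libraries, were 3, 2, 0 and 2 in the same order of settings and 0 to 3 leaving out 1 library. Plagl1 between the plasmids turned to -0.0188 with the length trend, and ran from -0.0766 to 0.1623 leaving out 1 library. The difference in the Meg3 to Dlk1 ratio between the plasmids ran from -0.0047 (without SIRT5_F101L replicate 2) to 0.2004 (without SIRT5_F101L replicate 1), and those from control ran from -0.4132 to -0.1883 and from -0.3206 to -0.0917 leaving out 1 library. Against control in SIRT5_WT, 8747 of 14528 genes were called in either direction without SIRT5_F101L replicate 1, against 8090 of 14253 with all libraries. List counts of that fit are thus not to be set against the main shares. Why these values move was not tested. No paired analysis was possible because the replicate numbers follow deposition order and pair no libraries. The ratio of H19 to Igf2 was not run, since Igf2 was listed at 0. Depth limits Cdkn1c and Dlk1 most, at 12 to 172 and 32 to 127 counts.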
